A study of Mus musculus with 4 samples.

Results

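Stromal and epithelial cells of the mouse digit were compared between 2 single-cell RNA libraries, one from unamputated digits and one from digits 28 days post-amputation (dpa) through the middle phalanx, P2. Both libraries came from FVB/NJ wild-type mice aged 8 weeks, and no transgene or drug was named for any group. The labels call the unamputated tissue homeostatic and the amputated tissue fibrosing. The question was which genes differ in level between the same kinds of cell in the healed stump and in the intact digit. Barcodes were kept with at least 500 genes, at least 1000 unique molecular identifiers (UMIs), at most 10% mitochondrial UMIs and no UMI of Ptprc, the leukocyte gene for CD45. Of 16771 such barcodes in the 2 libraries, 9616 fell into 6 classes set by 8 to 10 marker genes each, 5045 in the unamputated and 4571 in the 28 dpa library. All 4 libraries of the series together held 39266 barcodes that met the filter on genes, UMIs and mitochondrial share, among 50625 deposited.

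The classes stand for marker-like cells. The endothelial class, which lines blood and lymph vessels, had 1581 cells in the unamputated and 608 in the 28 dpa library. The mural class, pericytes and vascular smooth muscle that wrap vessels, had 1475 and 1615. Schwann cells, the glia of peripheral nerve, had 295 and 188, and keratinocytes, the epithelial cells of epidermis, nail and hair, had 1583 and 1892. Osteoblasts, which lay down bone, had 87 and 215. Tenocytes, the fibroblast-like cells of tendon, had 24 and 53. A wider tenocyte gate, chosen after the data were seen, held 195 and 198. It includes the narrow-gate cells and admits markers of other classes up to the tenocyte share. The summed level of a class's own markers was above that of every other class's markers within it. In endothelial cells, for example, it was 6171 UMIs per 1000000 UMIs of the class (CPM) in the unamputated and 5891 CPM in the 28 dpa library. The 10 mural markers summed to 58.7 and 148 CPM there. Cells were selected by these same markers, so such levels are no separate check of the classes.

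After digit amputation at this level the stump closes with scar and does not regrow. In such tissue vessels are remodelled, cut nerve fibres lose and regain their myelin sheath under the direction of Schwann cells, the epidermis covers the wound, and bone and tendon are rebuilt around new collagen. Keratins 6, 16 and 17 are textbook markers of activated epidermis at a wound edge, and myelin genes such as Mbp and Pmp22 mark Schwann cells that ensheath axons.

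Each group was 1 library, so no difference below has a replicate check, and no p-value was computed. Paired levels are given for the unamputated library first and the 28 dpa library second. Intervals are exact 95% intervals that cover counting error only. The unamputated library was deeper, with class medians of 10034 to 21646 UMIs per cell against 4178 to 9246. The labels describe pooled male and female animals, but 1 of 11954 filtered cells in the unamputated library and 0 of 11677 at 28 dpa were called female from sex-linked transcripts, against 9465 and 5791 called male. In the 12 dpa library, whose values are given for some genes, 3845 were called female and 0 male. The 2 libraries shared 57 barcode sequences, and leaving those cells out changed no direction among the results. Keratins of the epidermis (Krt1, Krt5, Krt10 and Krt14) summed to 79.8 to 113 CPM in the 5 other classes of the unamputated library and to 197 to 329 CPM at 28 dpa. The 6 neutrophil granule genes S100a8, S100a9, Ngp, Camp, Ltf and Lcn2 summed to 54.2 to 85.4 CPM across the 6 classes in the unamputated library and to 1.91 to 7.65 CPM at 28 dpa. Their part in the differences below was not tested.

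A gene counted as past 2-fold when its ratio of CPM, with 1 CPM added to both values, reached 2 and its level reached 20 CPM in the higher library. Keratinocytes had the fewest such genes and tenocytes the most. In keratinocytes 81 of 7129 genes (1.14%) were higher at 28 dpa past 2-fold and 124 (1.74%) lower. In endothelial cells the counts were 108 of 7171 (1.51%) higher and 201 (2.80%) lower, and in mural cells 119 of 7210 (1.65%) and 184 (2.55%). Schwann cells had 227 of 7516 (3.02%) higher and 350 (4.66%) lower. Osteoblasts had 156 of 6913 (2.26%) higher and 641 (9.27%) lower. The tenocyte class had 560 of 7043 (7.95%) and 910 (12.9%), and the wider gate 322 of 6828 (4.72%) and 466 (6.82%). The classes with the fewest cells had the most such genes, so the counts do not rank the classes by response. The median log2 ratio of all genes lay below 0 in each class, at -0.12 in endothelial, -0.16 in mural, -0.10 in Schwann, -0.22 in keratinocyte, -0.29 in osteoblast, -0.09 in tenocyte and -0.10 in wider-gate tenocyte cells. With that shift removed, the share of past-2-fold genes that were higher went from 35.0% to 48.1% in endothelial, from 39.3% to 65.9% in mural, from 39.3% to 52.8% in Schwann, from 39.5% to 68.3% in keratinocyte, from 19.6% to 50.8% in osteoblast and from 40.9% to 53.2% in wider-gate tenocyte cells. In narrow-gate tenocytes the share went from 38.1% to 46.6%. After centring, lower genes were the larger part in endothelial and narrow-gate tenocyte cells and the smaller part in the other 5 comparisons. Centring itself moves this balance, so no conclusion about the classes is drawn from it.

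**Figure D1:**
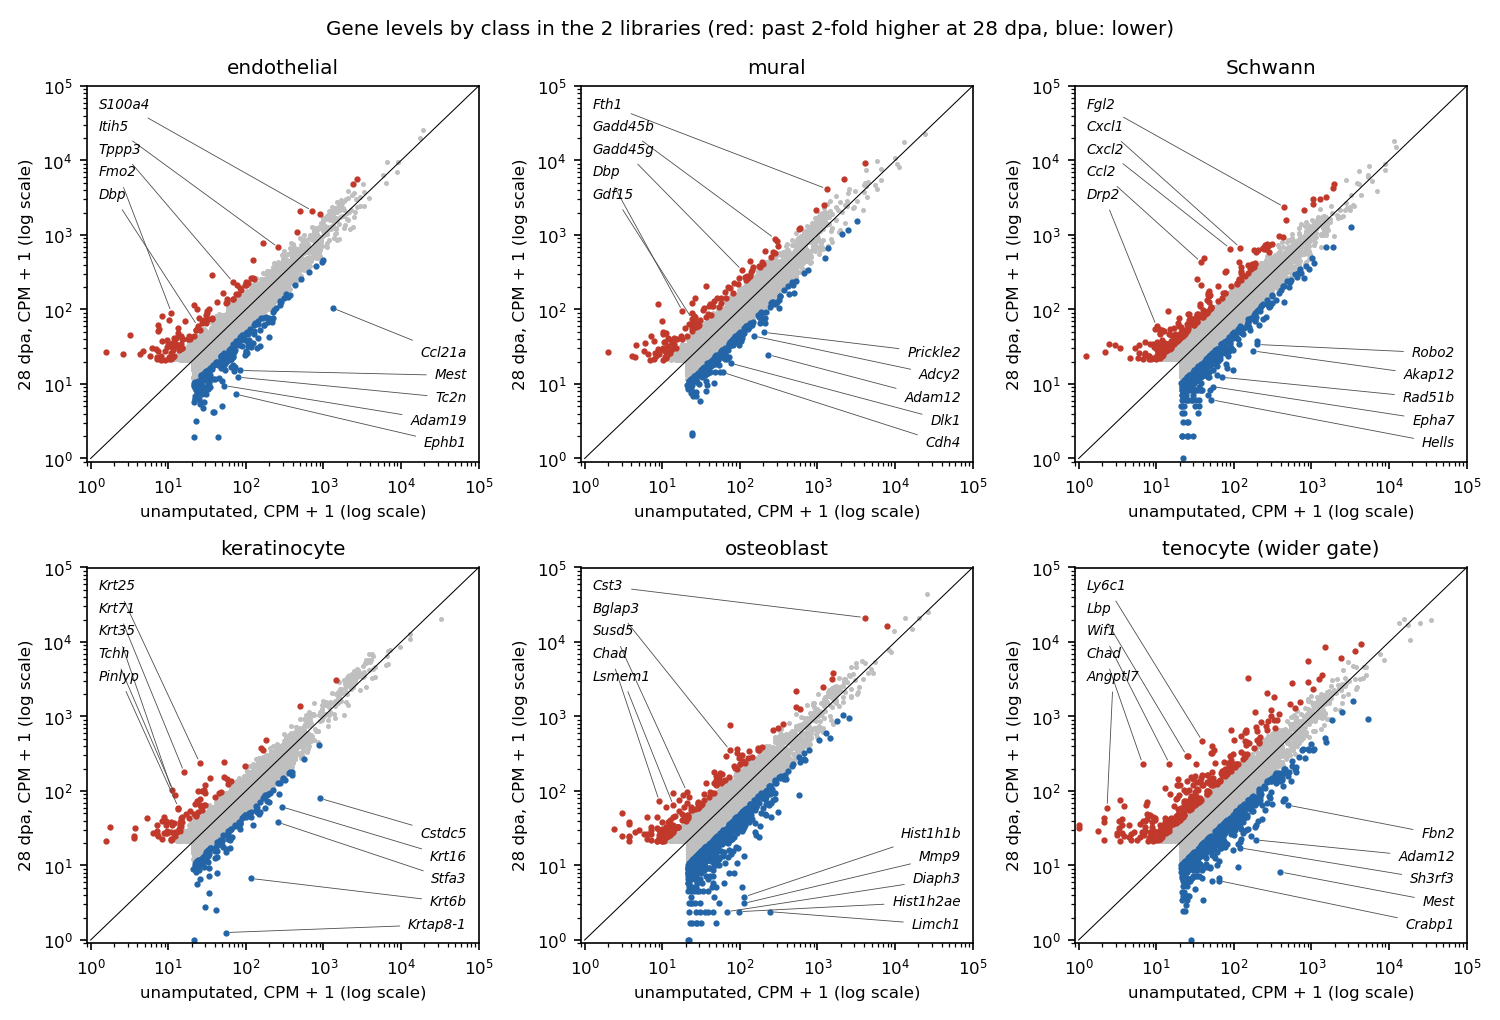
Level of each gene in the unamputated library (horizontal, CPM + 1, log scale) against the 28 dpa library (vertical, CPM + 1, log scale), 1 panel per class, for genes that reached 20 CPM in either library. Red points are higher and blue points lower at 28 dpa past 2-fold, and the labelled genes are the 5 highest and 5 lowest ratios chosen by the naming rule, such as Fmo2 and Ccl21a in endothelial cells.

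The endothelial class of the 28 dpa library held fewer lymphatic cells and lower levels of vessel basement membrane genes. Endothelial cells were 20.4% of the Ptprc-negative barcodes in the unamputated library (19.5 to 21.3) and 6.74% at 28 dpa (6.23 to 7.27). With every barcode thinned to 1000 UMIs the shares were 16.5% and 5.57%. Membership of the osteoblast and tenocyte classes depended on depth, since of cells in the class after thinning only 61 of 136 and 170 of 269 osteoblasts and 4 of 46 and 12 of 55 tenocytes were also in it before. Within the class, cells with UMIs of at least 3 of 8 lymphatic genes numbered 204 of 1581 in the unamputated library, 12.9% (11.3 to 14.7), and 35 of 608 at 28 dpa, 5.76% (4.04 to 7.92). These lymphatic cells had a median of 12550 UMIs in the unamputated library and 4652 at 28 dpa, and detection of 3 genes depends on depth.

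Of the 8 lymphatic genes, 7 were lower past 2-fold in the class sum, with a list median of -1.64 against -0.12 for all genes. Prox1, the master transcription factor of lymphatic identity, was at 122 CPM in the unamputated library and 34.4 CPM at 28 dpa. The hyaluronan receptor gene Lyve1 was at 105 and 31.2 CPM, and the VEGF-C receptor gene Flt4 at 110 and 37.8 CPM. All 3 were lower at 28 dpa by about as much as each other. A larger ratio was seen for Ccl21a (chromosome 4, 42772860 to 42773993), the chemokine that draws dendritic cells and T cells into lymph vessels, at 1311 CPM (1296 to 1327) against 104 CPM (92.8 to 116), a log2 ratio of -3.65. Among the lymphatic cells alone Ccl21a was at 8363 and 1766 CPM, whereas Mmrn1, a secreted lymphatic glycoprotein, was at 960 and 886 CPM. Prox1 was at 741 and 499 CPM there. These genes are among the 8 by which the lymphatic cells were selected, at unequal depth, so their levels in those cells depend on that selection. At 28 dpa 3 cells gave 50% of all Ccl21a UMIs, so its level there rests on few cells. Ccl21a has near-identical gene copies, and rows with the same symbol were summed.

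The highest endothelial ratio among the genes named by rule was that of Fmo2, which encodes a flavin-containing monooxygenase, and it was seen among the 1377 and 573 blood vessel cells that remained without the lymphatic ones. Across the class Fmo2 (chromosome 1, 162874317 to 162898726) was at 9.99 CPM (8.66 to 11.5) in the unamputated library and 89.8 CPM (79.7 to 101) at 28 dpa, a log2 ratio of 3.05 (2.90 to 3.44 without pseudocount). The 17 dpa library stood between, at 46.3 CPM, and the 12 dpa library was at 2.22 CPM. Its UMIs were spread over cells, with 22 cells of the unamputated and 32 of the 28 dpa library giving 50% of them. In blood vessel cells alone it was at 11.8 and 94.1 CPM. Tppp3, a tubulin-binding protein gene, was at 67.5 and 231 CPM, and Itih5, a hyaluronan-associated matrix protein gene, at 261 and 679 CPM. Both were higher at 28 dpa in blood vessel cells too, at 51.0 and 205 CPM for Tppp3 and 286 and 704 CPM for Itih5.

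Lower genes of the blood vessel cells included Ephb1, a receptor for ephrin-B ligands that guides vessel and nerve growth, at 43.2 CPM in the unamputated library and 2.35 CPM at 28 dpa, and Adam19, a membrane protease, at 39.5 and 8.71 CPM. Mest, an imprinted gene of growing mesoderm, was at 82.6 and 13.4 CPM. Another gene chosen by the naming rule, Tc2n, was measured mainly in lymphatic cells, with 495 and 188 CPM there against 1.17 and 0.335 CPM in blood vessel cells. Its class value was 78.5 and 11.3 CPM, and the part of the lymphatic share in it was not tested.

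Basement membrane genes, which encode the sheet that endothelial and mural cells build together, were lower in the endothelial class, with 11 of 13 below 0 and a median of -0.73. Only Nid2, at 166 and 74.7 CPM, and Col18a1, the precursor of endostatin, at 972 and 466 CPM, were past 2-fold. Col4a1, a chain of the main basement membrane collagen, was at 2416 and 1280 CPM. The per-cell view showed the same, since the list made up a median of 0.663% of a cell's UMIs in the unamputated library and 0.360% at 28 dpa. In the sprouting list, 3 of 12 genes were lower past 2-fold and none higher, with a median of -0.57. Apln, the tip cell peptide apelin, was at 89.97 and 43.8 CPM, and Unc5b, a netrin receptor of tip cells, at 59.9 and 19.9 CPM. Unc5b was higher in lymphatic cells, at 207 and 69.8 CPM, and in blood vessel cells it was at 32.6 and 16.8 CPM, not past 2-fold. The part of the lymphatic share in its class value was not tested. Angpt2, a destabilising ligand of the TEK receptor, was at 28.0 and 38.5 CPM and not past 2-fold.

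Few arterial, capillary or venous identity genes were past 2-fold. Of 11 arterial genes 1 was lower past 2-fold, of 11 capillary genes 1 was higher, and of 8 venous genes none passed in either direction. The arterial median was -0.45, with 7 of 11 genes below 0, against -0.12 for all genes. Over the settings it was between -0.46 and -0.07. The capillary and venous medians were 0.17 and 0.26. Dll4, the arterial Notch ligand, lay above 0 unlike most of its list, at 69.5 and 91.1 CPM. The venous adhesion receptor gene Ackr1 was at 83.2 and 125 CPM. Among receptors and ligands of VEGF, TEK and Notch signalling, 1 of 16, Flt4, was past 2-fold. Kdr, the main VEGF receptor, was at 460 and 284 CPM, and Flt1 at 996 and 956 CPM. Leukocyte adhesion genes were at similar levels, with Sele, E-selectin, at 851 and 662 CPM and Icam1 at 405 and 572 CPM, and of 11 genes only Cxcl1 was past 2-fold. In the BMP and TGF-beta list Bmp4 was higher, at 22.8 and 54.5 CPM, while Bmp2 was lower, at 50.8 and 17.0 CPM.

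Mural cells of the 28 dpa library had higher levels of chemokine genes and of Id1, Id2 and Id3, and lower levels of basement membrane genes. Adam12, a membrane metalloprotease of activated mesenchymal cells, had the lowest ratio among the genes named by rule. It was at 233 CPM (226 to 240) in the unamputated library and 23.7 CPM (20.4 to 27.4) at 28 dpa, a log2 ratio of -3.24 (-3.52 to -3.08 without pseudocount). The 12 and 17 dpa libraries had 272 and 93.4 CPM. Adam12 lies on chromosome 7, 133883199 to 134232146. Prickle2, a planar polarity gene, was at 204 and 48.3 CPM, the cadherin gene Cdh4 at 59.1 and 13.4 CPM, and Adcy2, an adenylyl cyclase gene, at 151 and 43.0 CPM. Dlk1, an imprinted Notch-related ligand of progenitor cells, was at 75.02 and 18.0 CPM. All 5 were lower at 28 dpa by more than 3-fold.

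Contractile genes of mural cells were at similar or somewhat higher levels at 28 dpa. Of 16 contractile genes 12 lay above 0 and 1 was past 2-fold, with a median of 0.22. Acta2, smooth muscle actin, was at 4433 and 5124 CPM, Tagln at 2566 and 4132 CPM, and Tpm2, beta-tropomyosin, at 1203 and 2284 CPM. The 1 gene past 2-fold was Pln, phospholamban, which restrains the calcium pump of the sarcoplasmic reticulum, at 69.9 and 198 CPM. Receptors and signalling genes of pericytes gave none of 14 past 2-fold, with a median of -0.37. Pdgfrb, the receptor that holds pericytes on vessels, was at 734 and 619 CPM.

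Matrix genes of mural cells lay mostly below 0. Of 16 fibrillar and matricellular genes 14 were below 0 and 3 past 2-fold. Their median of -0.44 was short of the 0.5 taken as a difference for a list. Col1a1, the main chain of type I collagen, was at 2049 and 1019 CPM, Postn, periostin of injured connective tissue, at 430 and 161 CPM, and Ccn2, connective tissue growth factor, at 187 and 92.6 CPM. Of 15 basement membrane genes 11 were below 0 and 3 past 2-fold, with a median of -0.77. Col4a1 was at 3193 and 1551 CPM, Lamb1 at 92.8 and 43.9 CPM and Col15a1 at 180 and 64.3 CPM. The basement membrane list made up 0.714% of the UMIs of a median cell in the unamputated library and 0.345% at 28 dpa.

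Chemokines of mural cells were higher, with 6 of 11 past 2-fold and a median of 1.33. Cxcl1, which recruits neutrophils, was at 300 and 819 CPM, Ccl2, which recruits monocytes, at 96.6 and 262 CPM, and Cxcl2 at 56.3 and 143 CPM. For Ccl2, 17 cells of the unamputated and 15 cells of the 28 dpa library gave 50% of the UMIs, so a small part of the class carried it. Among cells of 2000 to 10000 UMIs only, the list median was 0.30, and among cells called male it was 0.83. Immediate early genes, which respond within minutes to stimuli that include tissue dissociation, were higher too, with 7 of 24 past 2-fold and a median of 0.74. Fos was at 1211 and 2543 CPM, Klf2 at 142 and 336 CPM and Cebpd at 122 and 285 CPM. The upper tail of cells carried more of this list, since its 90th percentile was 1.88% of a cell's UMIs in the unamputated library and 3.59% at 28 dpa, against medians of 0.418% and 0.538%.

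ID genes, the direct targets of BMP signalling that block basic helix-loop-helix factors, were higher in mural cells, with Id1 at 63.0 and 172 CPM, Id2 at 34.0 and 103 CPM and Id3 at 588 and 1248 CPM. The other 15 measured genes of the TGF-beta and BMP list were not past 2-fold. The highest ratios chosen by the naming rule were Dbp, a clock output described below, the growth arrest genes Gadd45b, at 282 and 892 CPM, and Gadd45g, at 106 and 334 CPM, Fth1, the ferritin heavy chain that stores iron, at 1319 and 4154 CPM, and Gdf15, a stress-induced cytokine, at 23.3 and 73.3 CPM. Fth1 has many processed copies in the genome, so its count is uncertain. In mural cells without Myh11, 104 in the unamputated and 238 in the 28 dpa library, the log2 ratio of Gadd45g went from 1.65 to 0.0869 and that of Gdf15 from 1.62 to 0.48.

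Schwann cells of the 28 dpa library had higher summed levels of myelin genes. Of 18 myelin genes 12 were higher past 2-fold and none lower, with a median of 1.17 against -0.10 for all genes. Mbp, which compacts the cytoplasmic side of the sheath, was at 243 and 647 CPM, and Pmp22, the gene duplicated in Charcot-Marie-Tooth disease type 1A, at 804 and 2181 CPM. Drp2, a dystrophin-related protein that ties the sheath to the basal lamina, had the highest ratio of the list, at 9.08 CPM (6.42 to 12.5) and 58.6 CPM (44.4 to 75.9), a log2 ratio of 2.56 (2.07 to 3.32 without pseudocount).

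The remaining myelin genes split. Those that make sheath lipids were higher, with Fa2h at 18.6 and 58.6 CPM and Ugt8a at 22.5 and 46.3 CPM. Ncmap, at 47.3 and 152 CPM, and Cldn19, a claudin of the sheath's tight junctions, at 32.0 and 83.3 CPM, were higher as well. Egr2, the transcription factor that drives myelination, was at 36.3 and 40.1 CPM, Pmp2 at 56.4 and 56.5 CPM, and Gldn, which gathers sodium channels at nodes, at 199 and 251 CPM. None of these last 3 was past 2-fold, and Sh3tc2, at 63.1 and 51.4 CPM, was the 1 member below 0.

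Few cells held most myelin transcripts. For the list as a whole, 50% of UMIs came from 6 of 295 cells in the unamputated library and from 8 of 188 at 28 dpa, and for Ncmap from 4 and 4. The bulk of the class also differed, since the list made up a median of 0.121% of a cell's UMIs in the unamputated library and 0.237% at 28 dpa, with 75th percentiles of 0.181% and 0.398%. Among cells called male the list median was 0.28, under the 0.5 taken as a difference for a list, whereas within cells of 2000 to 10000 UMIs the median was 1.75. Across the settings run, the median was past 0.5 in 16 of 18.

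**Figure D2:**
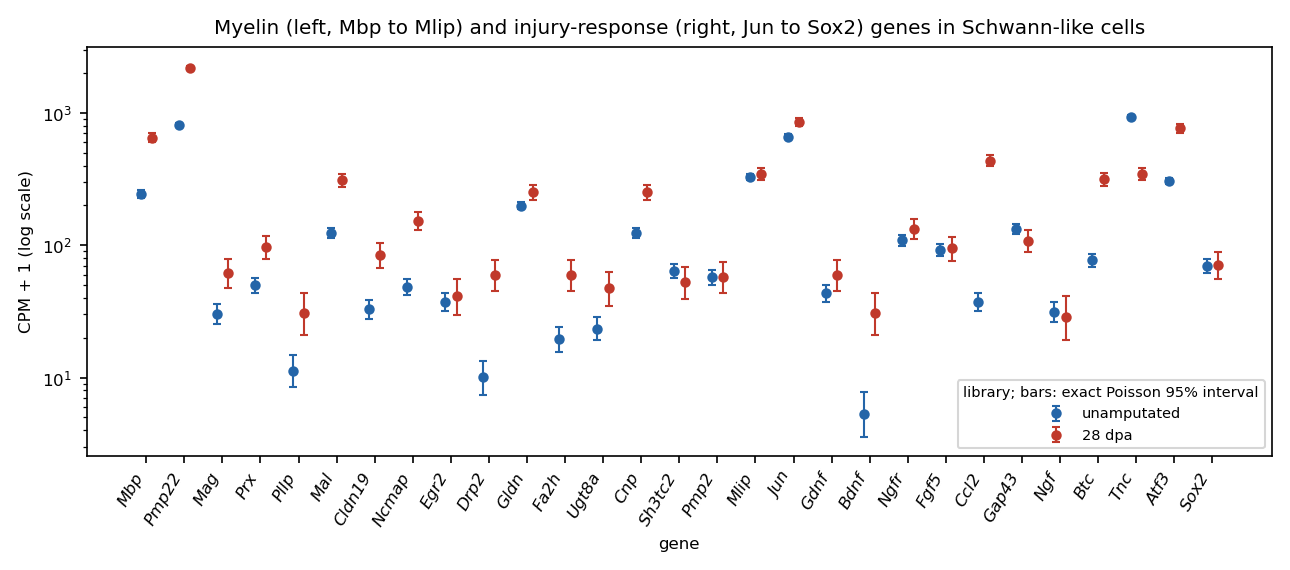
Level of 17 myelin genes (Mbp to Mlip) and each injury-response gene (Jun to Sox2) in Schwann cells, in CPM + 1 on a log scale, in the unamputated (blue) and 28 dpa (red) libraries, with exact Poisson 95% intervals as bars. The red points of Mbp, Pmp22 and Drp2 lie above the blue ones, whereas Egr2, Pmp2 and Mlip overlap, and Tnc is the gene with the clearest blue point on top.

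Genes of the repair state of Schwann cells, which forms after axons are cut, gave 4 of 12 higher past 2-fold and 1 lower, with a median of 0.34. The growth factor genes Btc, betacellulin, at 76.0 and 315 CPM, and Bdnf, a neurotrophin, at 4.30 and 29.8 CPM, were higher, as were Atf3, an injury-induced transcription factor, at 305 and 763 CPM, and Ccl2, at 36.6 and 434 CPM. Atf3 and Jun also belong to the immediate early and dissociation list, of which 4 of 24 genes were higher past 2-fold in this class. That list made up 0.373% of a median cell's UMIs in the unamputated library and 0.584% at 28 dpa, and its part in the repair and chemokine values was not tested. Jun, the central factor of the repair state, was at 661 and 858 CPM, Ngfr, the low-affinity neurotrophin receptor, at 108 and 133 CPM, and Gdnf at 42.5 and 58.6 CPM, none past 2-fold. Tnc, tenascin of the nerve bridge, was lower, at 926 and 345 CPM. Genes of non-myelinating Schwann cells gave 1 of 9 past 2-fold, Cdh2, N-cadherin, which was lower at 435 and 207 CPM, with a median of 0.02.

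Chemokines were higher in Schwann cells, with 6 of 10 past 2-fold and a median of 1.44. Over the settings that median was between 0.61 and 1.95. Cxcl2 was at 88.9 and 656 CPM, Cxcl1 at 120 and 673 CPM, and Csf1, the macrophage growth factor, at 44.4 and 134 CPM. Cells that carried them were few, with 4 and 4 cells giving 50% of Cxcl2 UMIs and 5 and 4 cells giving 50% of Ccl2 UMIs. Lyz2, a macrophage lysozyme gene that reached 14447 CPM in the immune gate, was at 39.7 and 484 CPM in the Schwann class, and 5 cells gave 50% of it at 28 dpa. The 10 immune gate markers summed there to 11.5 and 29.8 CPM, with 0 and 2 of them at 0. The part of immune transcripts in the Schwann chemokine values was not tested.

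Fgl2 (chromosome 5, 21372642 to 21378374), a fibrinogen-like protein gene, was higher and spread over more cells. It was at 446 CPM (426 to 466) in the unamputated library and 2369 CPM (2273 to 2467) at 28 dpa, with 295 and 1045 CPM in the 12 and 17 dpa libraries. At 28 dpa 27 cells gave 50% of its UMIs, and 32 did in the unamputated library. No other class of at least 50 cells exceeded 89.5 CPM. The lower genes chosen by the naming rule were Robo2, an axon guidance receptor gene, at 200 and 32.9 CPM, Akap12, a kinase scaffold gene, at 178 and 26.7 CPM, Epha7, at 52.1 and 8.22 CPM, and the chromatin and repair genes Hells, at 50.4 and 5.14 CPM, and Rad51b, at 68.8 and 11.3 CPM. The 28 dpa values of Hells, Epha7 and Rad51b rest on 5, 8 and 11 UMIs.

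Keratinocytes of the 28 dpa library had lower levels of Cstdc5 and Stfa3, and few genes of the epidermal layers were past 2-fold. Of 13 basal layer genes 2 were lower past 2-fold and none higher, and of 13 differentiation genes 1 was lower. The differentiation median was -0.0557, and in keratinocytes without Krt1 and Krt10, which are members of that list, it was 1.13. For the basal layer list the median was -0.32, with 9 of 13 genes below 0, against -0.22 for all genes. Krt14, the basal keratin, was at 6862 and 7575 CPM, Krt10, the suprabasal keratin, at 6588 and 6416 CPM, and Krt15 at 590 and 1056 CPM. The lower basal genes included Sostdc1, a BMP and Wnt antagonist, at 187 and 87.7 CPM.

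Cstdc5 (chromosome 16, 36359382 to 36367748) and Stfa3, cysteine protease inhibitor genes of the stefin A cluster, were lower past 2-fold. Cstdc5 was at 905 CPM (894 to 915) in the unamputated library and 78.6 CPM (74.7 to 82.7) at 28 dpa, a log2 ratio of -3.51. The 12 and 17 dpa libraries had 2190 and 707 CPM. Stfa3 was at 257, 500, 250 and 37.1 CPM in the unamputated, 12, 17 and 28 dpa libraries. Members of this cluster resemble each other, so reads may be split between copies. At 28 dpa 19 cells gave 50% of Cstdc5 UMIs and 43 cells 50% of Stfa3 UMIs.

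Wound-edge genes gave 5 of 10 lower past 2-fold and 1 higher, with a median of -0.96. Krt6b was at 116 and 5.69 CPM, Krt16 at 287 and 60.5 CPM, and Hbegf, a growth factor that drives keratinocyte migration, at 31.6 and 14.1 CPM. Krt6a, at 636 and 362 CPM, and Krt17, at 773 and 684 CPM, were not past 2-fold. The keratin differences were carried by few cells, since 3 cells gave 50% of Krt6b and 5 cells 50% of Krt16 in the unamputated library. Among cells of 2000 to 10000 UMIs the log2 ratios turned to 0.52 for Krt6b and 0.12 for Krt16, with a list median of -0.09. S100a8, at 40.6 and 1.55 CPM, and S100a9, at 28.8 and 1.81 CPM, are calprotectin subunits of neutrophils as well as of activated keratinocytes, and the neutrophil granule genes listed above summed to 85.4 and 7.65 CPM in this class. A median keratinocyte gave 0.0335% of its UMIs to the wound-edge list in the unamputated library and 0.0299% at 28 dpa, and the 90th percentile was 0.331% and 0.407%. The class sum and the typical cell therefore did not tell the same story for this list.

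Hair and nail genes gave 4 of 13 higher past 2-fold and 1 lower, with a median of -0.20. The inner root sheath keratin genes Krt71, at 15.0 and 178 CPM, and Krt25, at 24.4 and 238 CPM, and the hair cortex keratin gene Krt35, at 10.2 and 101 CPM, were higher. At 28 dpa 2 cells gave 50% of Krt71, 4 of Krt25, 6 of Krt35 and 2 of Tchh, trichohyalin, which was at 11.2 and 87.9 CPM. A single cell gave 50% of Pinlyp at 28 dpa and a single cell 50% of Krtap8-1 in the unamputated library. These values therefore describe a handful of cells and not the class. Stem cell genes of the follicle, Lgr5 at 98.0 and 55.1 CPM and Lgr6 at 70.4 and 39.4 CPM, were not past 2-fold. Sweat gland genes were too low to compare, with 1 of 9 reaching 20 CPM.

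**Figure D3:**
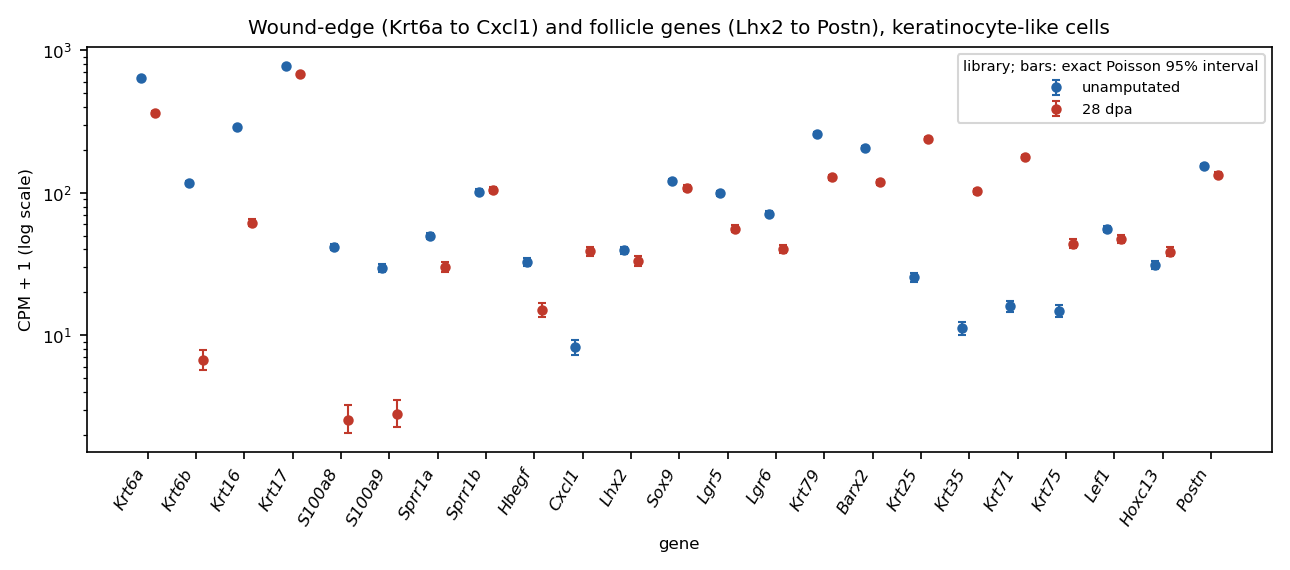
Level of each wound-edge gene (Krt6a to Cxcl1) and follicle gene (Lhx2 to Postn) in keratinocytes, in CPM + 1 on a log scale, in the unamputated (blue) and 28 dpa (red) libraries, with exact Poisson 95% intervals as bars. Krt6b, Krt16, S100a8 and S100a9 have the lower red points and Krt25, Krt35, Krt71 and Krt75 the higher ones, each resting on few cells for the keratins.

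Few bone matrix genes of osteoblasts were past 2-fold. Of 16 matrix and mineral genes 2 were higher past 2-fold and 1 lower, with a median of 0.15 against -0.29 for all genes. A median cell gave 6.10% of its UMIs to the list in the unamputated library and 8.83% at 28 dpa, and the 10 osteoblast gate markers summed to 18024 and 28883 CPM. Col1a1 was at 26290 and 25373 CPM, Spp1, osteopontin, at 25796 and 44184 CPM, and Alpl, the alkaline phosphatase that frees phosphate for mineral, at 599 and 536 CPM. The genes past 2-fold were the BMP family members Bmp3, at 53.0 and 152 CPM, and Bmp8a, at 33.3 and 90.9 CPM, and the minor collagen Col24a1, lower at 110 and 30.1 CPM. For Col24a1 2 cells gave 50% of the UMIs in the unamputated library.

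Cst3 (chromosome 2, 148871722 to 148875692), cystatin C, a secreted inhibitor of cathepsins, had a higher level that many cells shared. It was at 4044 CPM (3941 to 4148) in the unamputated library, 6300 CPM at 17 dpa and 21287 CPM (21048 to 21527) at 28 dpa, a log2 ratio of 2.40 (2.36 to 2.44 without pseudocount), and 50 of 215 cells gave 50% of its UMIs at 28 dpa. The 12 dpa library had 3 osteoblasts and is not compared. Bglap3, an osteocalcin-related gene, was at 73.4 and 351 CPM, and shares much of its sequence with the gate markers Bglap and Bglap2. Susd5 was at 19.7 and 97.2 CPM, and Chad, chondroadherin, at 8.15 and 72.0 CPM. For Chad 3 cells gave 50% of the UMIs in each library, among 9 and 32 cells with a UMI.

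Of osteoblast genes that act on osteoclasts or in Wnt signalling, few were past 2-fold. The list median was -0.48 against -0.29 for all genes, and over the alternatives it was between -1.13 and 0.05. A median cell gave 0.401% of its UMIs to the list in the unamputated library and 0.233% at 28 dpa. Tnfrsf11b, the decoy receptor osteoprotegerin, was higher at 10.9 and 31.5 CPM, and Tnfsf11, its target RANKL, was at 59.8 and 32.9 CPM and not past 2-fold. Csf1 was at 192 and 96.5 CPM, also short of 2-fold. In the Wnt pathway Wnt16, a ligand made by bone cells, was higher at 53.7 and 129 CPM, and the secreted inhibitor gene Wif1 was lower at 258 and 106 CPM. In all, of 14 genes in this list 2 were higher and 1 lower past 2-fold, where 2.26% of all osteoblast genes were higher and 9.27% lower. Collagen processing genes gave 1 of 17 past 2-fold, Sec24d, a coat protein of the vesicles that carry procollagen, lower at 238 and 116 CPM, and their median of -0.25 was close to that of all genes. Of 6 osteocyte genes 1, Tnfrsf11b again, was past 2-fold. Glycolysis genes gave 4 of 15 lower past 2-fold, where 9.27% of all osteoblast genes were, and their median of -0.37 was near the -0.29 of all genes. Gapdh was at 342 and 156 CPM, Eno1 at 111 and 34.3 CPM and Vegfa, an angiogenic factor under hypoxic control, at 65.2 and 26.6 CPM.

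The lowest ratios named by rule in the class rested on few cells of the unamputated library. Limch1 was at 242 and 1.40 CPM, with 3 cells giving 50% of its UMIs, and Diaph3 at 67.3 and 1.40 CPM, also with 3 cells. Mmp9, a gelatinase of osteoclasts, was at 111 and 2.10 CPM, with 2 cells giving 50%. The 6 osteoclast genes Acp5, Ctsk, Mmp9, Ocstamp, Dcstamp and Calcr summed to 437 CPM in the unamputated and 563 CPM in the 28 dpa osteoblasts. The linker and core histone genes Hist1h1b, at 114 and 2.80 CPM, and Hist1h2ae, at 96.5 and 1.40 CPM, had 2 cells each. Hist1h1b turned to 2.30 on the log2 scale among cells of 2000 to 10000 UMIs. Slc20a2, a phosphate transporter gene, at 94.5 and 16.1 CPM, and Rerg, at 53.0 and 11.2 CPM, were lower past 4-fold in osteoblasts. For Rerg 2 cells gave 50% of the UMIs in the unamputated library, and its log2 ratio was between -4.45 and -0.48 over the alternatives. Slc20a2 was not past 2-fold in the 4 other classes of at least 50 cells, and Rerg not in mural, Schwann and keratinocyte cells. Both genes were chosen for being past 4-fold here and past 2-fold in no other class. Their lack of difference elsewhere therefore follows from the choice.

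Tenocytes differed in cartilage and tendon matrix genes, and the same members of those lists were past 2-fold in both gates. The narrow-gate cells are part of the wider gate, so the narrow gate is no independent check. The 8 tenocyte gate markers summed to 2455 and 5045 CPM in the wider gate and to 3212 and 5647 CPM in the narrow gate. The 10 mural markers summed to 84.5 and 278 CPM in wider-gate cells. The part of these marker differences in the list values was not tested. In the wider gate, cartilage and joint genes gave 4 of 8 higher past 2-fold and 1 lower, with a median of 1.56, and 1.28 in the narrow gate. Chad (chromosome 11, 94565047 to 94569127), which binds collagen and integrins in cartilage, was at 5.67 CPM (3.83 to 8.10) in the unamputated library and 230 CPM (210 to 251) at 28 dpa, a log2 ratio of 5.11. The 12 and 17 dpa libraries had 11.1 and 170 CPM. In the narrow gate it was at 5.10 and 262 CPM. Prg4, the joint lubricant lubricin, was at 52.0 and 404 CPM in the wider gate, although a single cell gave 50% of it in the unamputated library. Hapln1, which links aggrecan to hyaluronan, was at 30.6 and 160 CPM and Clu, clusterin, at 13.99 and 89.9 CPM. Sox9, the transcription factor of cartilage, was at 101 and 87.5 CPM, and Ogn, osteoglycin, was lower at 1031 and 357 CPM. Acan and Hapln1 were also markers of a competing chondrocyte gate. The 8 chondrocyte markers summed to 387 and 743 CPM in wider-gate cells, with 1 of them at 0 in each library, and to 572 and 927 CPM in narrow-gate cells, and their part in these values was not tested. A median wider-gate cell gave 0.168% and 0.189% of its UMIs to the list, a smaller difference than that of its single genes. At 28 dpa 9 of 198 cells gave 50% of Chad UMIs, and 2 of 53 did in the narrow gate.

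Tendon matrix genes differed in both directions. Of 22 genes 4 were higher and 5 lower past 2-fold in the wider gate, with a median of -0.45. The higher ones were Comp, cartilage oligomeric matrix protein of loaded tendon, at 552 and 2796 CPM, the small proteoglycan genes Prelp, at 89.6 and 665 CPM, and Dcn, decorin, at 2371 and 6138 CPM, and Angptl7, at 1.32 and 58.8 CPM. The lower ones were the fibril-associated and fibril-nucleating collagen genes Col11a1, at 2455 and 1135 CPM, Col12a1, at 3412 and 1636 CPM, and Col14a1, at 201 and 38.2 CPM, with Tnc, at 1070 and 364 CPM, and Lox, the enzyme that cross-links collagen, at 567 and 213 CPM. The same 9 genes lay on the same sides past 2-fold in the narrow gate, whose cells are part of the wider one. For Angptl7 1 cell gave 50% of the UMIs in the unamputated library and 3 cells did at 28 dpa. Dcn and Prelp reached 9350 and 605 CPM in the fibroblast gate, whose markers summed to 938 and 1617 CPM in wider-gate cells, and the part of fibroblasts in these values was not tested. Col1a1 was at 34717 and 19655 CPM in the wider gate and Col3a1 at 18551 and 10560 CPM, both short of 2-fold. A median wider-gate cell gave 11.5% of its UMIs to the list in the unamputated library and 7.74% at 28 dpa.

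**Figure D4:**
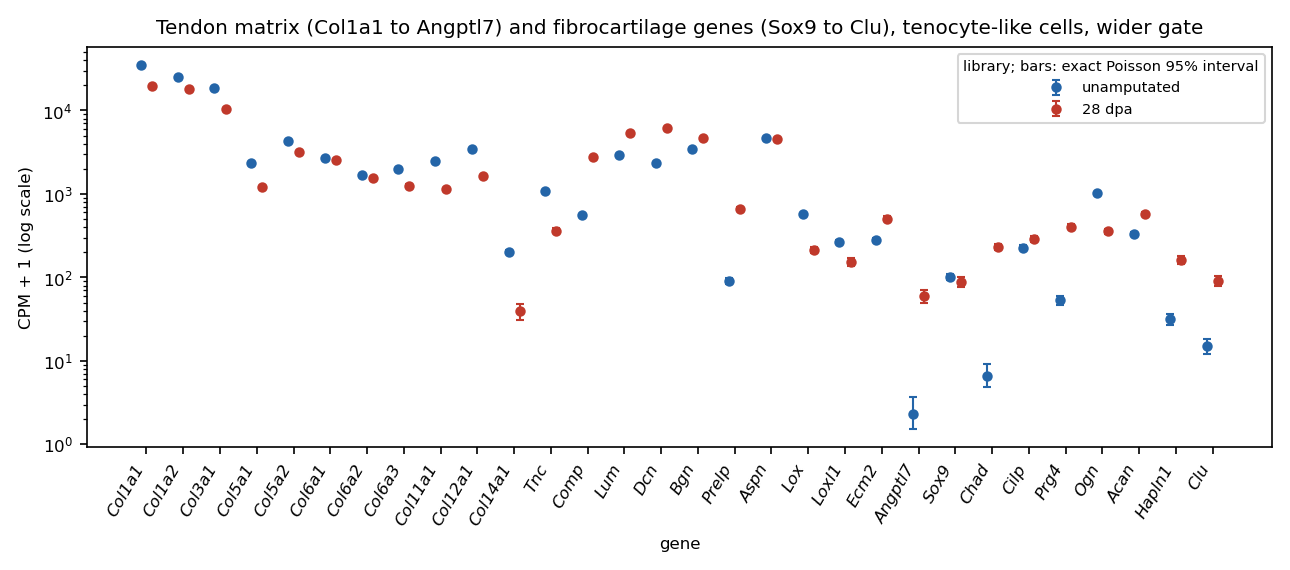
Level of each tendon matrix gene (Col1a1 to Angptl7) and fibrocartilage gene (Sox9 to Clu) in wider-gate tenocytes, in CPM + 1 on a log scale, in the unamputated (blue) and 28 dpa (red) libraries, with exact Poisson 95% intervals as bars. Collagens lie lower in red, whereas Comp, Prelp, Dcn, Chad, Prg4, Hapln1 and Clu lie higher.

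Some signalling genes of tenocytes differed as well. Wif1, the secreted Wnt inhibitor, was at 13.8 and 231 CPM in the wider gate, the opposite direction to its ratio in osteoblasts. Of 21 TGF-beta and BMP genes 6 were higher past 2-fold and none lower, with a median of 0.38. They included the ligands Bmp2, at 6.62 and 41.1 CPM, and Bmp4, at 8.70 and 43.0 CPM, the targets Id1, at 18.0 and 144 CPM, Id2, at 38.0 and 161 CPM, and Id3, at 264 and 661 CPM. The named genes of the wider gate were Lbp, a lipopolysaccharide-binding protein gene, at 23.6 and 298 CPM, and Ly6c1, at 38.2 and 469 CPM, next to Chad, Angptl7 and Wif1. Ly6c1 reached 1090 CPM in the fibroblast gate, and the part of fibroblasts in its value was not tested.

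The lowest ratios named by rule in wider-gate tenocytes included Mest, Adam12 and Fbn2. Mest (chromosome 6, 30723547 to 30748465) was at 398 CPM (381 to 415) in the unamputated library and 7.17 CPM (4.01 to 11.8) at 28 dpa, with 307 and 79.4 CPM in the 12 and 17 dpa libraries. Adam12 was at 192, 194, 88.7 and 21.0 CPM in the unamputated, 12, 17 and 28 dpa libraries. Fbn2, the fibrillin of developing tissue, was there at 497, 379, 201 and 63.6 CPM. All 3 stood lower at 17 dpa than in the unamputated library and lower again at 28 dpa. Crabp1, a retinoic acid-binding protein gene, was at 62.8 and 5.26 CPM, and Sh3rf3 at 119 and 16.2 CPM. In the narrow gate Stmn1 and Pclaf, which mark dividing cells, had 0 UMIs at 28 dpa, and 2 cells and 1 cell gave 50% of their UMIs in the unamputated library. Chemokines were lower in the wider gate, with 3 of 7 past 2-fold, Ccl7, Cxcl5 and Cxcl12, and a median of -0.87.

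Of the lists measured in every class, basement membrane and proliferation genes were lower in several. Basement membrane medians were -0.73 in endothelial, -0.77 in mural and -0.74 in osteoblast cells, -0.60 in narrow-gate and -0.47 in wider-gate tenocytes, -0.21 in Schwann cells and 0.00 in keratinocytes. Osteoblasts have little of these transcripts, a median of 0.0587% and 0.0349% of a cell's UMIs. Proliferation genes were lower in 5 classes, with 10 of 15 past 2-fold in endothelial, 7 of 12 in mural, 11 of 21 in Schwann, 13 of 15 in osteoblast and 10 of 13 in narrow-gate tenocyte cells. The wider tenocyte gate gave 4 of 9 lower and 1 higher. In keratinocytes none of 21 was past 2-fold and the median was 0.20. Mki67, the classic marker of cycling cells, was at 63.9 and 20.5 CPM in endothelial cells and at 241 and 247 CPM in keratinocytes. The lower values came with few cells, since 2 cells gave 50% of Mki67 UMIs in unamputated osteoblasts and 13 in unamputated mural cells. The list median turned to 0.35 in mural cells of 2000 to 10000 UMIs and to 0.85 in osteoblasts under a stricter doublet rule. The typical cell gave a similar share of its UMIs to the list, with 0.0481% and 0.0504% of UMIs in endothelial and 0.0427% and 0.0543% in mural cells.

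Other lists were near 0 or differed by class. Immediate early genes had medians of 0.74 in mural, 0.54 in osteoblast, 0.49 in Schwann and 0.29 in endothelial cells, but -0.26 in keratinocytes and -0.32 in wider-gate tenocytes. The osteoblast value was -0.09 among cells of 2000 to 10000 UMIs, and it was past 0.5 in 11 of 18 settings. Interferon-stimulated genes gave 1 gene lower past 2-fold in mural cells, Iigp1, at 46.4 and 17.4 CPM, 1 of 10 in Schwann cells, 1 of 4 measured genes in osteoblasts and none in endothelial cells and keratinocytes. In narrow-gate tenocytes 2 of 4 were lower and 1 higher, and in the wider gate 1 of 3 was lower. Of all genes, 9.27% were lower past 2-fold in osteoblasts, 12.9% in narrow-gate and 6.82% in wider-gate tenocytes, so these few genes give no result for the list. The share of a median cell's UMIs from the whole list was higher at 28 dpa in each class. It was 0.148% and 0.201% in endothelial, 0.124% and 0.160% in mural and 0.0546% and 0.0810% in wider-gate tenocyte cells. Genes of at least 20 CPM had a median of -0.36 in endothelial cells, with 7 of 10 below 0, and -0.15 in mural cells, with 7 of 9 below 0. That median was 0.19 in Schwann, 0.16 in keratinocyte, -0.35 in osteoblast, -0.29 in narrow-gate and 0.66 in wider-gate tenocyte cells. Antigen presentation genes had a median of 0.03 in endothelial cells, while H2-D1, a class I molecule, was at 277 and 878 CPM in wider-gate tenocytes. Glycolysis medians were between -0.37 in osteoblasts and 0.20 in Schwann cells over the classes of at least 50 cells.

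**Figure D5:**
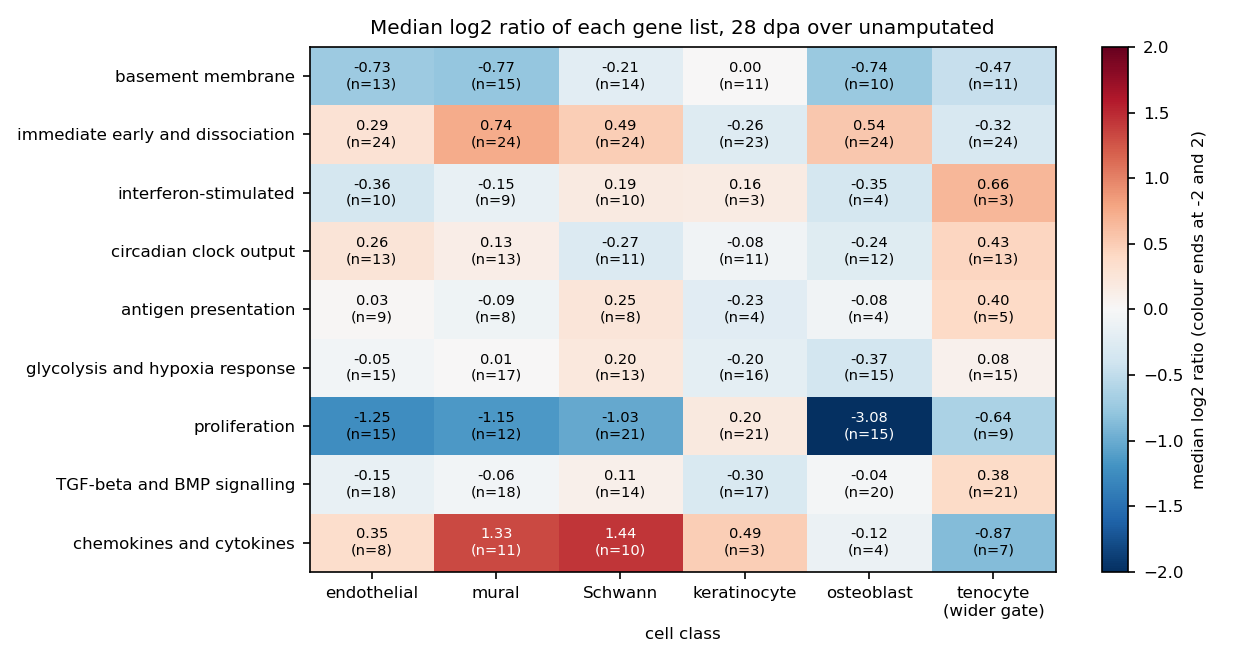
Median log2 ratio (28 dpa over unamputated) of each gene list measured in every class, with columns for classes and the number of genes of at least 20 CPM in brackets. Proliferation is blue in all columns but the keratinocyte one, chemokines are red in mural and Schwann cells, and basement membrane is blue in endothelial, mural and osteoblast cells.

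Genes past 2-fold in the same direction in each of the 5 classes of at least 50 cells numbered 8 higher (0.160% of 5008 genes) and 3 lower (0.0599%). The higher genes were Dbp, Nr1d1, Cxcl1, Gadd45b, S100a4, Rpl9-ps6, Lyz2 and Mt4, and the lower ones Rad51b, S100a9 and Ulk4. Some of these rested on the setting, in each of the 5 classes. Lowest log2 ratios over the settings run included 0.53 for Gadd45b, 0.70 for Mt4 and 0.81 for Lyz2 in keratinocytes. They also included 0.82 for Gadd45b and 0.89 for Cxcl1 in endothelial, 0.74 for Nr1d1 in Schwann and 0.81 for Mt4 in mural cells. Under the strict doublet rule osteoblast log2 ratios came to 0.26 for Dbp, 0.38 for Gadd45b, 0.17 for Rpl9-ps6 and 0.47 for Lyz2. Among cells of 2000 to 10000 UMIs they were 0.40 for Rpl9-ps6, -0.17 for Lyz2 and 1.04 for Ulk4 in osteoblasts, and Rad51b was at -0.11 in Schwann and -0.47 in endothelial cells. Without cells carrying Mki67 or Top2a Rad51b was at -0.28 in Schwann and -0.44 in endothelial cells and Ulk4 at -0.26 in Schwann cells. S100a4 and S100a9 kept a log2 ratio beyond 1 and -1 in each of the 5 classes under every setting run. Among the 11 genes were 2 genes of the circadian clock. Dbp, a PAR-type transcription factor whose level cycles through the day, was at 23 and 58.6 CPM in endothelial, 17.2 and 94.2 CPM in mural, 10.3 and 47.3 CPM in Schwann, 7.81 and 44.3 CPM in keratinocyte and 10.2 and 28.0 CPM in osteoblast cells. Nr1d1, the repressor REV-ERB alpha, was at 35.2 and 75.4 CPM in endothelial, 29.9 and 72.0 CPM in mural, 36.1 and 80.2 CPM in Schwann, 20.7 and 47.7 CPM in keratinocyte and 13.6 and 45.4 CPM in osteoblast cells. Arntl, the activator BMAL1 that peaks opposite to Nr1d1, lay below 0 in every class, at 50.7 and 21.9 CPM in mural and 61.6 and 29.1 CPM in keratinocyte cells. As a whole the clock list was mixed, with medians of 0.26 in endothelial and -0.27 in Schwann cells. The hour of tissue collection was not given in the sources used here, and its part was not tested.

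The other shared genes differed in where they were high. S100a4, a calcium-binding protein of motile mesenchymal cells, was at 719 and 2110 CPM in endothelial and 2191 and 5658 CPM in mural cells, and at 51.3 and 248 CPM in keratinocytes. The fibroblast gate had 7601 CPM of it at 28 dpa. Gadd45b was highest in mural cells, at 282 and 892 CPM. Mt4, a metallothionein of squamous epithelium, was at 1466 and 3085 CPM in keratinocytes and at 2.04 to 7.41 CPM in the other 4 classes of the unamputated library, against 33.9 to 51.1 CPM at 28 dpa. Lyz2 and S100a9 were highest in the immune gate, at 14447 and 15966 CPM in the library where each was higher, so that 3 of the 11 shared genes are typical of another class. The part of free RNA or mixed droplets in those 3 was not tested. Rpl9-ps6 is a processed copy of a ribosomal protein gene, at 13.5 and 42.9 CPM in endothelial cells, and its count is uncertain for that reason. Of the lower genes, Ulk4 was at 26.2 and 10.1 CPM in endothelial cells, and Rad51b, a recombination repair gene, was highest in keratinocytes, at 177 and 86.1 CPM.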

How the data were processed

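Cells of manually dissected P2 digits were freed with trypsin and collagenase I, cleared of red cells, sorted as live by propidium iodide and run on the 10x Chromium Single Cell 3' v3 kit, per the labels' protocols. The deposited files hold whole-number UMI counts per gene and barcode, not normalized by the authors. Cell Ranger 7.1.0 and mm10 are named in the submitters' processing notes, and the annotation and the settings of cell calling are not given in the sources used here. No column belonged to a sample outside the series. The 4 libraries held 50625 barcodes, with 197140774 UMIs in the unamputated and 106899985 in the 28 dpa library. The 32285 gene rows gave 32245 symbols, with repeated symbols summed, and 32129 IDs matched GENCODE M21 on GRCm38, from which coordinates come.

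A barcode entered a class with UMIs of at least 3 of its markers, the largest share of markers detected, and every other class at no more than 0.5 of that share. Fibroblast, chondrocyte, melanocyte and immune gates competed. No doublet caller was run. A barcode with markers of a second class stayed out only above that limit of 0.5, and a stricter rule was an alternative. The wider tenocyte gate was chosen after the data were seen, because the narrow one held 24 unamputated cells. It asked for at least 3 tenocyte markers and the largest share of markers detected, without the limit of 0.5. Barcodes with many markers of a second class could therefore enter it. UMIs were summed per class and library and scaled to 1000000 UMIs (CPM), and log2 ratios used 1 CPM as pseudocount. Intervals at 95% are exact Poisson for levels, exact binomial for ratios and Clopper-Pearson for shares, and cover counting error only. With 1 library per group no test was possible. The 5 highest and 5 lowest ratios per class were named among genes with at least 50 CPM in the higher library. Their level there had to be at least 0.25 of that of the highest other class. Gate markers, mitochondrial, haemoglobin and immunoglobulin genes, 4 Y-linked genes, Xist, Tsix and unnamed gene models were left out. Genes past 2-fold in every class of at least 50 cells, and members of the gene lists, were also named. So were up to 3 genes per class and direction that were past 4-fold there. These had to be within 0.5 log2 units in at least 2 other classes and past 2-fold in none. A few list members enter the counts and medians and are not reported here by name. The classes, members and lists were chosen with earlier results of these data known. Alternatives covered gates, cell filters, doublets, depth, sex calls, scaling, pseudocount and level minimum. The arithmetic was tested on simulated data. Python 3.11.15, numpy 2.4.6, scipy 1.17.1, pandas 2.3.3 and matplotlib 3.10.9 were used.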

Additional observations from a re-analysis of the deposited data

How the results depend on the processing

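No paired analysis was possible because each group was 1 library. The counts of genes past 2-fold moved with the level minimum, the depth window, the subsets and the doublet rule. With a minimum of 50 CPM, higher and lower genes numbered 58 and 107 in endothelial, 74 and 104 in mural, 119 and 150 in Schwann, 36 and 68 in keratinocyte, 78 and 311 in osteoblast, 247 and 441 in tenocyte cells and 3 and 0 in all 5 classes. With no minimum they numbered 438 and 778, 391 and 555, 1352 and 1530, 257 and 313, 1075 and 2260, 2261 and 3145, and 29 and 13 in the same order. Among cells of 2000 to 10000 UMIs there were 391 lower genes in mural cells, 856 and 862 in Schwann, 249 and 683 in keratinocyte and 908 and 1703 in osteoblast cells, and 18 and 9 in all classes. Within subsets (mural cells without Myh11, keratinocytes without Krt1 and Krt10) they were 323 and 711 in mural and 183 and 361 in keratinocyte cells. The all-class counts came to 13 and 5 there, but the osteoblast subset gave no value. These counts therefore do not rest on subset values in all 5 classes. Centred on the class median they were 180 and 93 in mural, 125 and 58 in keratinocyte and 336 and 325 in osteoblast cells, and 15 and 1 in all classes. A stricter cell filter gave 323 lower genes in mural and 216 in keratinocyte cells. A pseudocount of 5 CPM gave 112 lower genes in mural cells and 1 in all classes. The strict doublet rule gave 353 higher genes in Schwann cells, 1112 and 1979 in osteoblasts and 1 lower gene in all classes. Assignment by correlation gave 243 and 415 in tenocytes and 16 higher genes in all classes. The wider tenocyte gate gave 322 and 466. No gene was lower in all classes among cells called male, and 1 was without cells carrying Mki67 or Top2a. The wider gate, the removal of cells with Mki67 or Top2a, of shared barcodes and of cells with Acp5 or Mmp9, and every setting for all classes at once were chosen after seeing the data. The cause of these shifts was not tested.

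Of the 19 lists with a median beyond 0.5, 6 reversed under some setting, in 8 values, and 13 came under 0.5 in some setting, in 28 values. Lists with medians nearer 0 were not scored for direction, and some crossed 0. Of 111 results for named genes 7 reversed, in 10 values. At 2000 to 10000 UMIs the log2 values were -0.0917 for osteoblast immediate early genes, 0.35 for mural proliferation, 0.12 for Krt16, 0.52 for Krt6b, 0.70 for Krtap8-1, 2.30 for Hist1h1b, and, in osteoblasts, -0.17 for Lyz2 and 1.04 for Ulk4. The strict doublet rule gave 0.85 for osteoblast proliferation, 0.51 for Krtap8-1 and 2.04 for Hist1h2ae. Leaving out cells with Mki67 or Top2a selects on members of the proliferation list and took 315 of 1581 unamputated and 46 of 608 28 dpa endothelial cells, so the values it gives are no check of that list. Proliferation was then 0.0700 in endothelial, 0.36 in mural, 0.31 in Schwann, 0.42 in osteoblast and 0.58 in tenocyte cells, Krtap8-1 was 0.36 and Hist1h1b 0.38. Over all settings the Schwann myelin median was between 0.28 and 2.08, the wound-edge median between -1.503 and -0.0914, Fmo2 between 2.56 and 3.53, Cst3 between 1.91 and 2.98, and mural Adam12 between -3.48 and -3.00. The osteoblast subset, and for tenocytes the subset, the strict doublet rule and the depth window, gave no value. Depth limits genes near 20 CPM most in tenocyte, Schwann and osteoblast cells, whose class sums at 28 dpa hold 523126, 972735 and 1430513 UMIs.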

Other observations

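Some imprinted genes had lower levels at 28 dpa in tenocyte, mural, osteoblast or endothelial cells. They were chosen after their values were seen, so they stand for no group. In wider-gate tenocytes Igf2, the fetal growth factor, was at 43.5 and 8.604 CPM, Plagl1 at 96.6 and 28.7 CPM, Peg3 at 102 and 29.2 CPM and the noncoding RNA Meg3 at 630 and 210 CPM. In mural cells Meg3 was at 1241 and 491 CPM and its neighbour Rian at 209 and 65.4 CPM. In osteoblasts Mest was at 72.0 and 6.99 CPM, and in endothelial cells Peg3 was at 102 and 25.2 CPM. Others were not past 2-fold. H19 was at 136 and 91.8 CPM in wider-gate tenocytes and at 28.1 and 27.1 CPM in keratinocytes, and Peg3 was at 50.2 and 70.9 CPM in Schwann cells and 27.2 and 28.0 CPM in osteoblasts. Each value compares 1 library with 1 library.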
